A study of Homo sapiens with 16 samples.

Results

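The cytochrome P450 and aldehyde dehydrogenase genes described here are 10 genes, chosen by symbol from the 18190 symbols of the array table: CYP4B1, CYP1A1, CYP1B1, CYP24A1, ALDH1A3, ALDH2, ALDH3A1, ALDH3A2, ALDH3B2 and ALDH7A1. CYP4B1 was chosen because its signal on these same arrays jumped at 36 h, so its time course is given as a description with no test. The question was whether the other 9 genes shared that jump. These 9 were also chosen with earlier results of these data known, so their counts beside all tested probes are descriptions. Each of the 10 symbols had 1 probe in the table. The cells were MCF10HER2, an established line made by stable transduction of the HER2 receptor (gene symbol ERBB2) into MCF10A, a nontransformed human breast epithelial line. All cultures grew in defined medium that held EGF and hydrocortisone and lists no insulin. The HER2 kinase inhibitor CP724,714 was given at 1 µM, and RNA came from parallel cultures every 3 h from 0 to 45 h. Each of the 16 time points has 1 array. Only the culture taken at 0 h was untreated, and no vehicle-treated culture was analysed here. The study also renewed the medium when treatment began. Inhibitor and fresh medium therefore cannot be told apart in changes against the 0 h array.

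Cytochrome P450 enzymes are heme proteins that insert an oxygen atom into drugs, steroids, fatty acids and vitamins, and they draw electrons from a reductase partner. Aldehyde dehydrogenases oxidise aldehydes to carboxylic acids with NAD or NADP as the acceptor. The families meet in retinoid metabolism, where aldehyde dehydrogenases of the ALDH1A group make retinoic acid and P450 enzymes of the CYP26 group remove it. Several members are induced through ligand-activated transcription factors, CYP1A1, CYP1B1 and ALDH3A1 by the aryl hydrocarbon receptor AHR and CYP24A1 by the vitamin D receptor VDR.

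The promoters of the gene that jumped and of the 2 ALDH genes with an upward linear trend over the course are shown first, so that their base composition and motifs can be set side by side. Of the 10 genes, 5 had a promoter in the RefSeq-based table (GRCh38.p14), each covering 250 bases before to 50 bases after the annotated start, and the sequences of CYP4B1 (chr1:46798796-46799095, plus strand), ALDH1A3 (chr15:100879581-100879880, plus strand) and ALDH3A2 (chr17:19648501-19648800, plus strand) follow. Capitals mark the motifs searched on both strands: the TATA box TATAAA, the GC box GGGCGG, the core GCGTG of the AHR response element, the E-box CACGTG, the AP-1 site TGANTCA, the nuclear receptor core motif AGGTCA and the FOXO site GTAAACA. GC boxes at neighbouring positions in ALDH1A3 share a base.
CYP4B1: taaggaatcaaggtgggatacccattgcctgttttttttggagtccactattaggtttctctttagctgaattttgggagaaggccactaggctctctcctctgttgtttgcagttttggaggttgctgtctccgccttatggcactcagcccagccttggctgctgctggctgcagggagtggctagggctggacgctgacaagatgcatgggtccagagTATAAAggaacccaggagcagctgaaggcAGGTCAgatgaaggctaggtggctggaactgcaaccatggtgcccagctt
ALDH1A3: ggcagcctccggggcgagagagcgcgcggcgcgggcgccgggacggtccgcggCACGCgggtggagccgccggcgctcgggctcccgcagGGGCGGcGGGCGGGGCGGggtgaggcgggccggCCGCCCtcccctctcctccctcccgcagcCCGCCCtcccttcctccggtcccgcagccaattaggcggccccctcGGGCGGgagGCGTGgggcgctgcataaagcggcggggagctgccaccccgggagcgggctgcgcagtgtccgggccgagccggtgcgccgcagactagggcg
ALDH3A2: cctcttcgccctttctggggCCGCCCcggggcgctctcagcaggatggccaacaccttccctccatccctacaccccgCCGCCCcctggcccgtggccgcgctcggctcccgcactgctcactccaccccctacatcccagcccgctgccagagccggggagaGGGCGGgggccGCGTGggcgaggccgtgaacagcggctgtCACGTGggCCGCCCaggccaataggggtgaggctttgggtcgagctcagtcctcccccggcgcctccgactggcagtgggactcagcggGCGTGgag

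The CYP4B1 promoter had a GC content of 52.7%, 2 CpG dinucleotides, a TATA box at position -29 from the start and an AGGTCA match at the start. The ALDH1A3 promoter had a GC content of 81.7%, 46 CpG dinucleotides and 6 GC boxes, and the ALDH3A2 window printed had 73.3%, 27 and 4. A further ALDH3A2 window, at chr17:19647886-19648185, had a GC content of 55% and none of the motifs. Over the 35116 promoters of the table the median GC content was 58.7%, and TATAAA was present in 11.5%, AGGTCA in 13.8%, GGGCGG in 45% and GCGTG in 36.5% of them. GCGTG occurred in the CYP1A1, ALDH1A3 and ALDH3A2 windows and not in those of CYP4B1 and ALDH7A1. These matches are descriptions of the letters in these windows.

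CYP4B1, a P450 that oxidises fatty acids and activates several foreign compounds, drifted upward at a low signal until 33 h and was then several-fold higher. The deposited intensity of its probe was detected on all 16 arrays. On the normalized log2 scale used below, the CYP4B1 signal at 0, 3, 6, 9, 12 and 15 h was 8.10, 8.25, 8.27, 8.36, 8.32 and 8.36, in that order. At 18, 21, 24, 27, 30 and 33 h it was 8.75, 8.58, 8.46, 8.56, 8.92 and 8.70. At 36, 39, 42 and 45 h it was 10.25, 10.44, 10.50 and 10.66. The 4 arrays from 36 h on lay between 10.25 and 10.66, all above the highest of the 12 earlier arrays, 8.92. The step from 33 h to 36 h was 1.55 on the log2 scale, which is 2.93-fold. The largest other step of CYP4B1, at 18 h, was 0.39. Before normalization the intensity was 746 at 33 h and 1682 at 36 h. The mean of 36 to 45 h exceeded that of 24 to 33 h by 1.80 (3.49-fold), and the 45 h array exceeded the 0 h array by 5.87-fold.

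**Figure D1:**
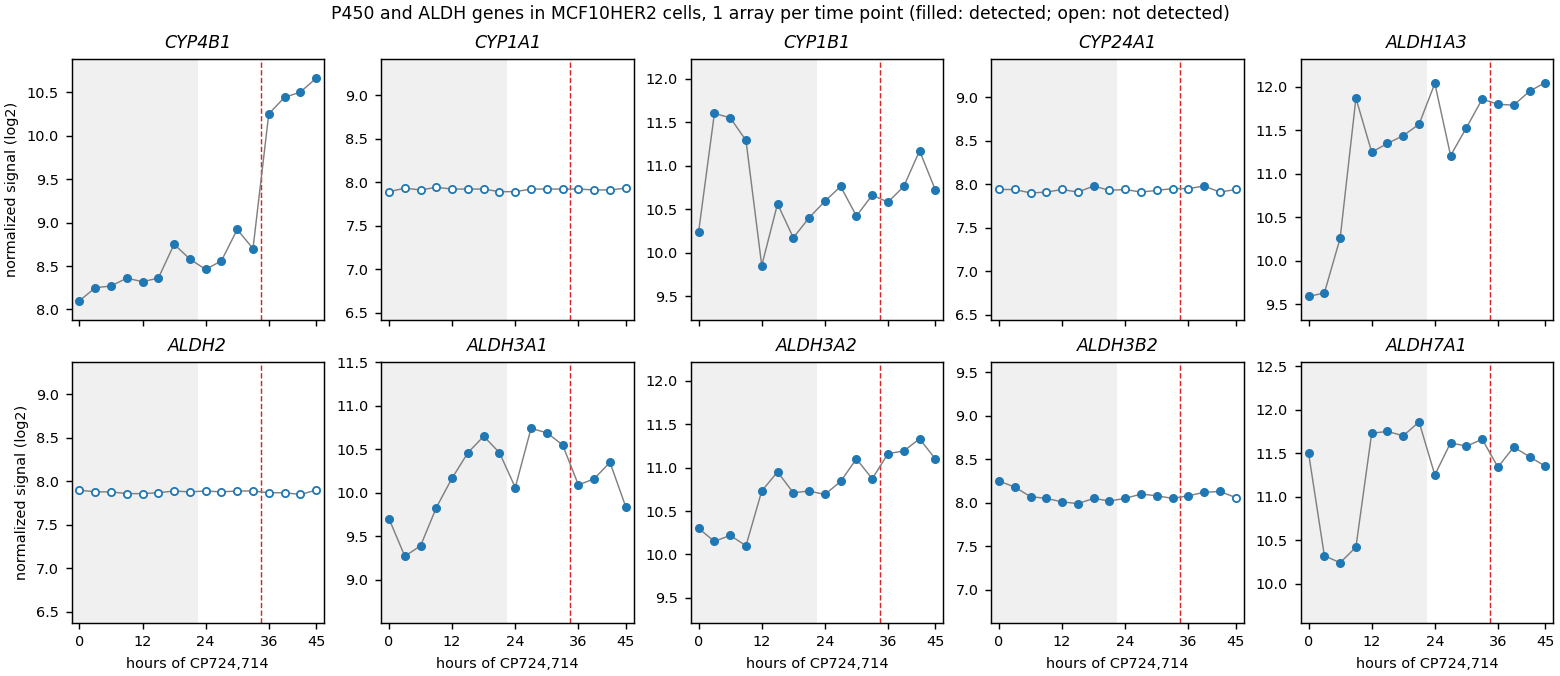
Normalized log2 signal of the 10 genes (y axes, each spanning 3 log2 units) against hours of CP724,714 (x axes), 1 array per point, with filled points detected and open points not detected. The dashed line stands between 33 and 36 h and grey marks the arrays from 0 to 21 h. The largest rise at the line is that of CYP4B1 (1.55), followed by ALDH3A2 (0.30), while ALDH3A1 (-0.46) and ALDH7A1 (-0.32) fall.

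The step of CYP4B1 was the largest rise from 33 h to 36 h among the 12321 tested probes, those detected (detection p under 0.05) on 3 or more arrays. A rise of 1.7-fold or more between these 2 arrays, the fold that the study used as its threshold, was seen for 0.438% of tested probes, and a fall of that size for 0.528%. Between these arrays the root mean square difference over tested probes was 0.21, against 0.09 from 30 to 33 h and 0.10 from 36 to 39 h. The array at 36 h therefore differed from its predecessor by more than its neighbours did. By the same measure the steps to 3, 6, 9 and 12 h were larger still, at 0.31, 0.29, 0.23 and 0.33. The background signal, the median intensity of the 3343 probes with a mean detection p above 0.5, was 171.8 at 33 h and 172 at 36 h. With 1 array at each time, the culture, the RNA preparation and the time point cannot be told apart in any single step.

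The other P450 genes did not show the jump on these arrays. CYP1B1, which oxidises estradiol and polycyclic hydrocarbons and is induced through AHR, was detected on all 16 arrays. Its log2 signals at 0, 3, 6, 9 and 12 h were 10.24, 11.60, 11.55, 11.29 and 9.85, and later signals lay between 10.17 and 11.17. On this scale CYP1B1 was thus highest on the 3 arrays from 3 to 9 h, up to 2.56-fold above 0 h, and lowest at 12 h. Without normalization the 9 h intensity, 1590, lay just below the 1613 of the 0 h array, while the 3 h and 6 h arrays gave 3025 and 3085. The lowest such intensity, 934, came from the 18 h array. The high of CYP1B1 at 9 h was therefore seen only after normalization. Its step at 36 h was -0.08. In the spline fit over the whole course it was not past the threshold (limma adjusted p = 0.483), whereas without the 0 h array it was (limma adjusted p = 0.00396).

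CYP1A1, the AHR-induced hydrocarbon hydroxylase, was detected on no array, and its intensity lay between 143 at 21 h and 210 at 33 h. CYP24A1, which inactivates the active form of vitamin D, was detected on 2 arrays, at 18 h and 39 h, with a highest intensity of 232. ALDH2, the mitochondrial enzyme that removes acetaldehyde, was likewise detected on no array, with intensities from 130 at 9 h to 186 at 45 h. The lowest intensity of each of these genes came from an array before 24 h and the highest from a later one, as did the background, which lay between 135.9 and 148.9 from 0 to 21 h and between 164.5 and 173.9 from 24 to 45 h. For these 3 genes the arrays give only a bound, near the level of the negative controls, and they were not tested.

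ALDH1A3, which makes retinoic acid from retinal, was higher early rather than at 36 h. At 0, 3, 6 and 9 h its log2 signal was 9.59, 9.63, 10.26 and 11.87. In the later arrays it lay between 11.21 at 27 h and 12.05 at 45 h, with a local high of 12.04 at 24 h. It was at least 1.7-fold above the 0 h array on 13 of 15 treated arrays and 5.51-fold above it at 45 h. On the normalized scale this is a size close to that of CYP4B1. Before normalization the 0 h and 45 h intensities were 1104 and 5153 for ALDH1A3, and 281 and 2225 for CYP4B1, which was dim at 0 h. Unlike CYP4B1, ALDH1A3 had 1.61 of its normalized rise in the single step from 6 to 9 h. Across that step the unnormalized ALDH1A3 intensity went from 1467.5 to 2247.4, and by 12 h it had reached 2491. The 9 h array had the lowest upper quartile of intensity, 397 against 588 for the 6 h array. How much of the 6 to 9 h step came from normalization was not tested. ALDH1A3 was time-dependent over 0 to 45 h (fitted range 2.69, limma adjusted p = 6.38e-05) and rose with a linear trend of 1.95 over 45 h (SE 0.38, limma adjusted p = 0.00109). The step at 36 h was -0.06. The trend was not past the threshold within 24 to 45 h alone (limma adjusted p = 0.209).

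ALDH3A2, the fatty aldehyde dehydrogenase of the endoplasmic reticulum, rose in a graded way and was the nearest of the group to CYP4B1 late in the course. Its log2 signal was between 10.10 and 10.30 from 0 to 9 h, between 10.71 and 10.95 from 12 to 21 h and between 10.69 and 11.10 from 24 to 33 h. From 36 to 45 h it was 11.16, 11.19, 11.33 and 11.10, with 3 of these arrays above the highest earlier one and the 45 h array at the same rounded value as the 30 h array. The mean of 36 to 45 h was 0.32 above that of 24 to 33 h (SE 0.09, limma adjusted p = 0.00836), or 1.25-fold, and this call was lost under median scaling (0.32, limma adjusted p = 0.0978). The step at 36 h was 0.30, smaller than the 0.63 seen at 12 h, and 6.01% of tested probes rose more at 36 h. ALDH3A2 was also time-dependent (limma adjusted p = 0.000842) and had a linear trend of 1.10 over the 45 h (SE 0.16, adjusted p = 8.13e-05 in limma).

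ALDH3A1, which oxidises aromatic and lipid-derived aldehydes and shares AHR control with the CYP1 genes, went the other way at 36 h. The log2 signal was 9.27 at 3 h, its lowest, and reached 10.65 at 18 h. At 24, 27, 30 and 33 h it was 10.06, 10.74, 10.69 and 10.55. From 36 to 45 h it was 10.09, 10.16, 10.35 and 9.84. ALDH3A1 was time-dependent (fitted range 1.21, limma adjusted p = 0.00399), and the late arrays were 0.40 below those of 24 to 33 h (SE 0.13, limma adjusted p = 0.0234), with the 24 h array overlapping the late ones. Leaving out the 27, 30, 33, 36 or 45 h array left this difference short of the threshold, with values from -0.31 to -0.40, as did a fit on all 16 arrays (limma adjusted p = 0.124). The step at 36 h was -0.46, and 97.4% of tested probes rose more or fell less.

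ALDH7A1, an enzyme of lysine breakdown, was low on the 3 arrays after the inhibitor and fresh medium were added. At 0, 3, 6, 9 and 12 h the log2 signal was 11.50, 10.32, 10.24, 10.42 and 11.73. From 12 to 45 h it stayed between 11.25 and 11.86. The 3 to 9 h arrays were thus up to 2.39-fold below 0 h and the later arrays lay on both sides of the 0 h value. The spline with 4 degrees of freedom did not pass the threshold (limma adjusted p = 0.103), whereas with 5 degrees of freedom it did (limma adjusted p = 0.0108), as it did without the 0 h array (limma adjusted p = 0.000484). The step at 36 h was -0.32.

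ALDH3B2, which acts on long-chain aldehydes at lipid droplets, had a log2 signal of 8.25 at 0 h and between 7.99 and 8.18 afterwards, near the detection limit. It was time-dependent (fitted range 0.24, limma adjusted p = 0.000454) with its highest value on the untreated array. The fitted range of ALDH3B2 was 0.68 without background correction and 0.92 with a correction from the signals alone (normexp). Its detection p-values lay more than 0.01 of a step off the grid of 708 equal steps that most probes followed, as they did on 8 or more arrays for 6.88% of the table, so its 15 detected arrays are uncertain. Of the other members, ALDH3A2 had such a departure on 1 array and smaller ones on 7. The step of ALDH3B2 at 36 h was 0.02.

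Over the whole course, 4 of the 6 tested genes other than CYP4B1 were time-dependent (adjusted p below 0.05), namely ALDH1A3, ALDH3A1, ALDH3A2 and ALDH3B2, against 41.9% of all tested probes. A linear trend was past the threshold upward for 2 of the 6, ALDH1A3 and ALDH3A2, against 12.9% of probes, and downward for none, against 11.5%. By the study's fold of 1.7 against the 0 h array, 5 of the 6 were changed at 1 or more times, against 19.5% of probes. The exception on this scale was the dim ALDH3B2, whose intensity before normalization was 364 at 0 h and 202 at 15 h. Dim probes, whose folds are small on this scale, are also among the probes behind the 19.5%. CYP1B1, ALDH1A3, ALDH3A1 and ALDH3A2 were higher and ALDH7A1 lower, against 10.9% and 9.47% of probes. All of these folds rest on the same 0 h array. Because the members were chosen with earlier results of these data known, these counts only describe them.

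The arrays from 36 to 45 h were then set against those from 24 to 33 h, which lie in the same background range. The time points of a set are not replicates of each other, and the error here is their scatter. Of the 6 genes, ALDH3A2 was higher and ALDH3A1 lower, against 16% and 15.9% of tested probes, or 31.8% in either direction. The threshold was not met by CYP1B1 (0.20, limma adjusted p = 0.18), ALDH1A3 (0.24, limma adjusted p = 0.179), ALDH7A1 (-0.10, limma adjusted p = 0.436) and ALDH3B2 (0.02, limma adjusted p = 0.447). All 4 late arrays lay above all 4 mid arrays for 1 of the 6, ALDH3A2 by a margin below rounding, against 15.3% of tested probes.

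A jump was separated from a steady drift by a fit of the 8 arrays from 24 to 45 h with both a line in hours and a step at 36 h. In this fit the step of CYP4B1 was 1.33 on the log2 scale, given as a description. None of the other 6 had a step past the threshold in limma, 1 of the 6 (ALDH3A1) had an unadjusted p under 0.05, and 0.657% of tested probes had a step upward and 1.06% downward. The step was 0.17 for ALDH3A2 (95% interval -0.20 to 0.55), 0.10 for ALDH1A3 (-0.48 to 0.68), 0.06 for CYP1B1 (-0.42 to 0.53) and 0.04 for ALDH3B2 (-0.05 to 0.13). For ALDH7A1 it was -0.32 (-0.70 to 0.06) and for ALDH3A1 -0.57 (-1.13 to 0.00). The intervals of ALDH1A3, ALDH3A2 and CYP1B1 leave room for a rise of up to 0.68, 0.55 and 0.53.

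**Figure D2:**
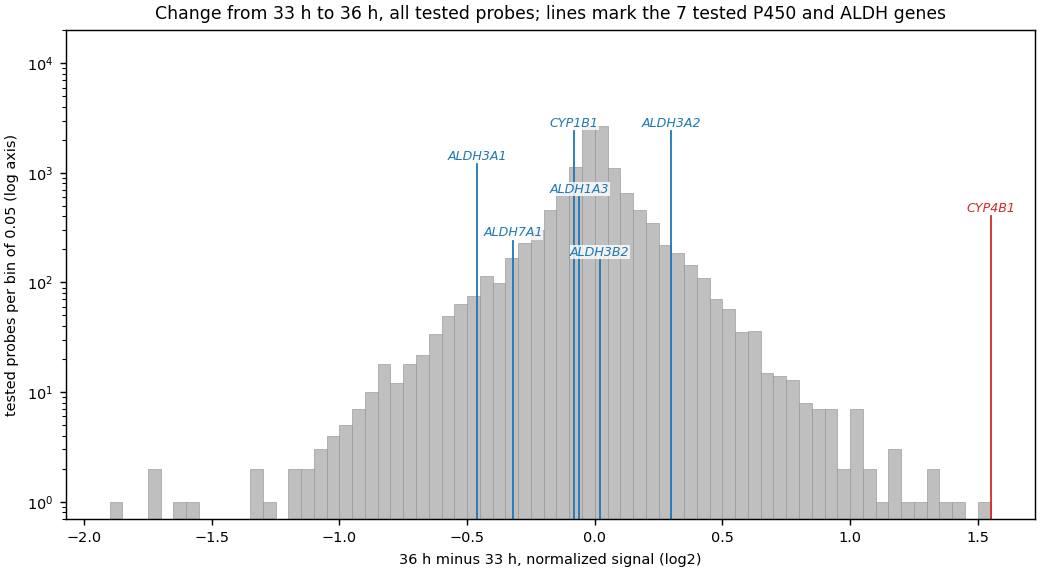
Number of tested probes (y axis, log scale) by the change in log2 signal from the 33 h to the 36 h array (x axis, bins of 0.05), with lines of arbitrary height at the 7 tested members. CYP4B1 lies at the upper end at 1.55, and the other 6 lie between -0.46 and 0.30.

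Of the other tested CYP and ALDH genes, 7 of 24 (29.2%) differed between 36 to 45 h and 24 to 33 h, near the 31.8% of all tested probes. Of 49 other CYP genes in the table, 25 were detected on no array and 16 were tested. Of these 16, 7 were time-dependent, none was higher at 36 to 45 h than at 24 to 33 h and 3 were lower. These are 43.8%, 0% and 18.8%, against 42.6%, 16.5% and 16.1% of all 11536 tested genes. The median late change was -0.03, against 0.003 over all tested genes. CYP4X1, an orphan P450 of the same family as CYP4B1, was lower (-0.37, SE 0.08, limma adjusted p = 0.00213), with log2 signals of 8.39, 9.40 and 8.69 at 0, 33 and 45 h. CYP27B1, which makes active vitamin D, was lower as well (-0.16, SE 0.04, limma adjusted p = 0.00265). CYP51A1, the lanosterol demethylase of cholesterol synthesis, was time-dependent, with 10.51 at 0 h and 9.29 at 33 h (fitted range 1.42, limma adjusted p = 0.000498) with no difference at 36 h past the threshold.

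Among 11 other ALDH genes 8 were tested, 4 were time-dependent, 1 was higher late and 3 were lower, which is 50%, 12.5% and 37.5% against the same shares of all genes. ALDH3B1, the nearest relative of ALDH3B2, was the gene that was higher. At 0, 33, 36 and 45 h its log2 signal was 8.93, 9.84, 10.50 and 10.44. The late change was 0.60 (SE 0.07, limma adjusted p = 6.06e-06), and the step beyond the drift was 0.62 (SE 0.15, limma adjusted p = 0.0414). ALDH16A1 was among those lower late (-0.44, SE 0.08, limma adjusted p = 0.000358), a call lost in the fit on all 16 arrays (limma adjusted p = 0.0505). Whether the probes of ALDH3B1 and ALDH3B2, which are close copies, tell both genes apart was not tested.

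The pathways around these enzymes are given by lists drawn up from general knowledge, some of which hold members. Of 41 genes of retinoid metabolism and signaling, 23 were tested, 13 were time-dependent, 6 were higher late and 5 lower. That is 56.5% time-dependent against 42.6% of all tested genes, 26.1% higher late against 16.5% and 21.7% lower against 16.1%. RXRA, the partner receptor of the retinoic acid and vitamin D receptors, was 0.81 higher late (SE 0.10, limma adjusted p = 7e-06), with 10.72 at 33 h and 11.66 at 36 h, and its step beyond the drift was 0.90 (SE 0.20, limma adjusted p = 0.0324). RDH11, a retinal reductase, was lower late (-0.49, SE 0.07, limma adjusted p = 2.38e-05). LRAT, which stores retinol as esters, fell over the course from 9.36 at 0 h to 7.97, near the floor, at 45 h (limma adjusted p = 1.25e-07 in the spline fit). ALDH1A3, also in this list, rose over the course as given above.

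Of 18 genes of the AHR pathway 12 were tested, 6 were time-dependent, 3 were higher late and 5 lower, or 50%, 25% and 41.7% against 42.6%, 16.5% and 16.1% of all genes. NQO1, a quinone reductase induced through AHR, was lower late (-0.47, SE 0.08, limma adjusted p = 0.000328), as were ALDH3A1 above and SLC7A5, an amino acid transporter (-0.53, SE 0.09, limma adjusted p = 0.000263). The call of SLC7A5 was lost in the fit on all 16 arrays (limma adjusted p = 0.0635). The 3 genes higher late were AHR itself (0.37, SE 0.08, limma adjusted p = 0.00117), NFE2L2 (0.24, SE 0.07, limma adjusted p = 0.0156) and ARNT. AHR was highest at 0 h, at 13.07, with 12.59 at 33 h and 12.79 at 45 h. NFE2L2 was 10.39 at 0 h and 10.40 at 45 h. ARNT lay near the floor, with a late change of 0.08 (SE 0.02, limma adjusted p = 0.00333). In the vitamin D list 10 of 17 genes were tested, 5 were time-dependent, 2 were higher late and 3 lower, or 50%, 20% and 30% against those shares. Those higher were RXRA and KLK6, a secreted kallikrein protease, with log2 signals of 9.98 at 33 h and 11.20 at 36 h (late change 1.36, SE 0.11, limma adjusted p = 1.6e-07). Unlike CYP4B1, KLK6 was at 36 h close to its untreated level, 11.18 at 0 h, and its lowest signal was 9.39. KLK6 had a step beyond the drift of 1.06 (SE 0.22, limma adjusted p = 0.022), and its detection p-values were off the common steps on all 16 arrays, as those of ALDH3B2 were.

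A list of 24 genes covered the electron partners of P450 enzymes and the making and breakdown of heme. Of these, 19 were tested, 12 were time-dependent, 4 were higher late and 6 lower. The shares are 63.2%, 21.1% and 31.6%, against 42.6%, 16.5% and 16.1% of all genes. POR, a reductase partner of P450 enzymes, was among those higher (0.18, SE 0.06, limma adjusted p = 0.0321). Over the whole course POR fell, with 9.50 at 0 h, 8.78 at 33 h and 8.89 at 45 h (linear change -0.67, SE 0.22, limma adjusted p = 0.0299). FDXR, the reductase of the mitochondrial P450 enzymes, fell from 12.26 at 0 h to 10.17 at 45 h, with a late change of -0.81 (SE 0.09, limma adjusted p = 2.21e-06). HMOX1, which degrades heme, was 9.40 at 0 h, 10.27 at its highest and 7.98, near the floor, at 45 h (fitted range 2.01, limma adjusted p = 0.000202). Of 10 xenobiotic and lipid receptors 7 were tested, 3 were time-dependent, and 1 was higher late and 1 lower, or 42.9%, 14.3% and 14.3%. PPARG was lower (-0.65, SE 0.07, limma adjusted p = 4.38e-06), and ESRRA, an orphan receptor, was higher (0.26, SE 0.08, limma adjusted p = 0.0213), a call lost without the 33, 36, 39 or 45 h array (0.19 to 0.25).

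Conjugation enzymes attach glutathione, sulfate, methyl and other groups to drugs and their oxidised products. Of 41 such genes 22 were tested, 12 were time-dependent, 1 was higher late and 4 were lower, or 54.5%, 4.55% and 18.2% against 42.6%, 16.5% and 16.1% of all genes. GSTO1, a glutathione transferase, was lower late (-0.47, SE 0.05, limma adjusted p = 2.17e-06). MGST2 was time-dependent with 11.36 at 0 h and 12.81 at 33 h (limma adjusted p = 2.48e-05), and GSTO2 as well (fitted range 1.08, limma adjusted p = 0.0211). Of 22 carbonyl and alcohol reductases 16 were tested, 9 were time-dependent, 2 were higher late and 8 were lower, or 56.2%, 12.5% and 50% against the same shares. CBR3, a carbonyl reductase, was lower (-0.62, SE 0.08, limma adjusted p = 2.1e-05), a call lost in the fit on all 16 arrays (limma adjusted p = 0.0732).

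HSD11B2, which inactivates cortisol, had the largest step beyond the drift in these lists. At 0, 33, 36 and 45 h its log2 signal was 8.81, 9.22, 10.57 and 10.46. The late change was 1.20 (SE 0.08, limma adjusted p = 1.81e-08), and the step beyond the drift was 1.15 (SE 0.16, limma adjusted p = 0.00304). The genes of these families and lists with an upward step past the threshold were thus ALDH3B1, RXRA, KLK6 and HSD11B2. Those with a downward step were FDXR, PPARG and CBR3.

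**Figure D3:**
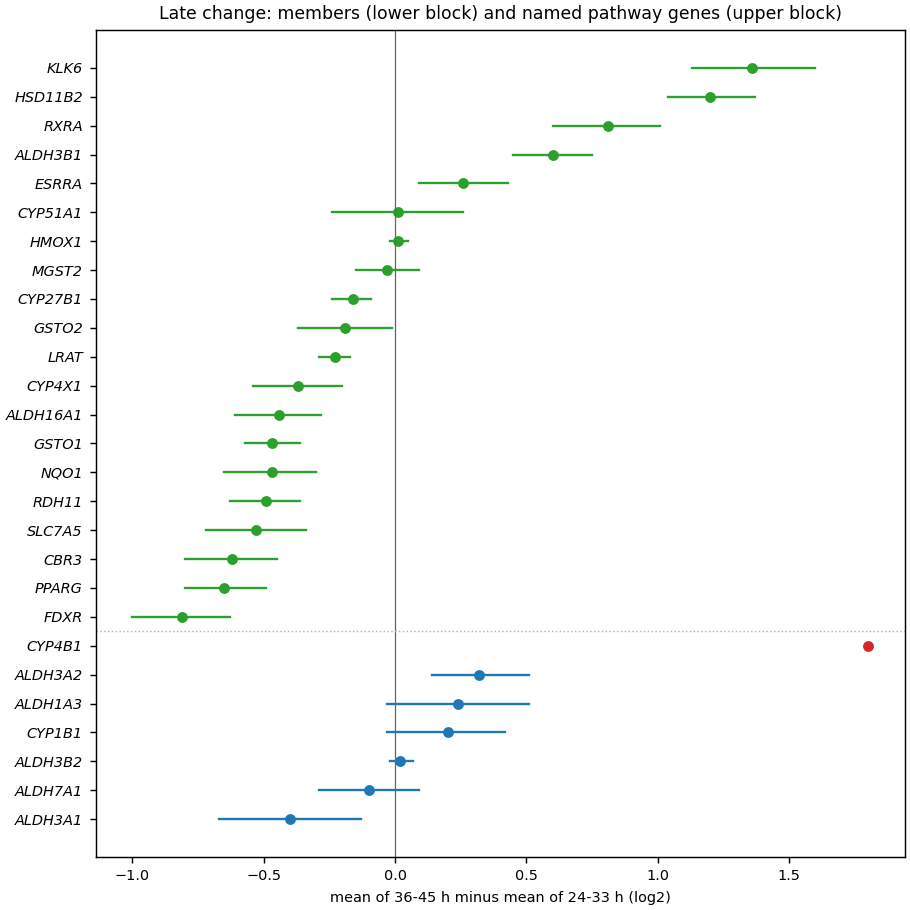
Mean log2 signal of the 36 to 45 h arrays minus that of the 24 to 33 h arrays (x axis) for the 7 tested members (lower block) and the named pathway genes (upper block), with 95% intervals from limma as bars. CYP4B1 has no interval because it was chosen on this difference, and it lies at 1.80, above KLK6 at 1.36 and HSD11B2 at 1.20.

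The genes whose profiles were most like that of CYP4B1 included none of the members or list genes. Likeness was measured by Pearson's r of the log2 signal over the 16 arrays, across 11535 other tested genes, and all of these values share the arrays and the same step at 36 h. The 5 genes were CA11, a carbonic anhydrase-related protein (r = 0.99), C9orf111 (r = 0.98), LY6G6C (r = 0.97), SYT12, a synaptotagmin (r = 0.97), and VAMP5, a vesicle SNARE (r = 0.97). Within 24 to 45 h r was between 0.97 and 0.99 for these genes, and within 0 to 21 h it was between 0.37 and 0.68. Both ranges follow in part from the choice of these genes, since the step at 36 h lies within the later arrays. Their steps at 36 h were smaller than that of CYP4B1, 0.54 for CA11, 0.33 for C9orf111, 0.56 for LY6G6C, 0.25 for SYT12 and 0.67 for VAMP5. How much smaller depends on the setting, since C9orf111 and SYT12 lay near the floor. Their late changes were 0.30 and 0.27, and 0.97 and 0.93 with a background correction from the signals alone (normexp). The late change of CYP4B1 was 1.80 and 1.72 under these settings. Among the members r with CYP4B1 was 0.76 for ALDH3A2, which placed 562nd, and 0.55 for ALDH1A3. It was 0.21 for ALDH7A1, 0.11 for ALDH3A1, 0.06 for CYP1B1 and 0.05 for ALDH3B2. From 24 to 45 h alone r was 0.85 for ALDH3A2 and -0.61 for ALDH3A1.

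**Figure D4:**
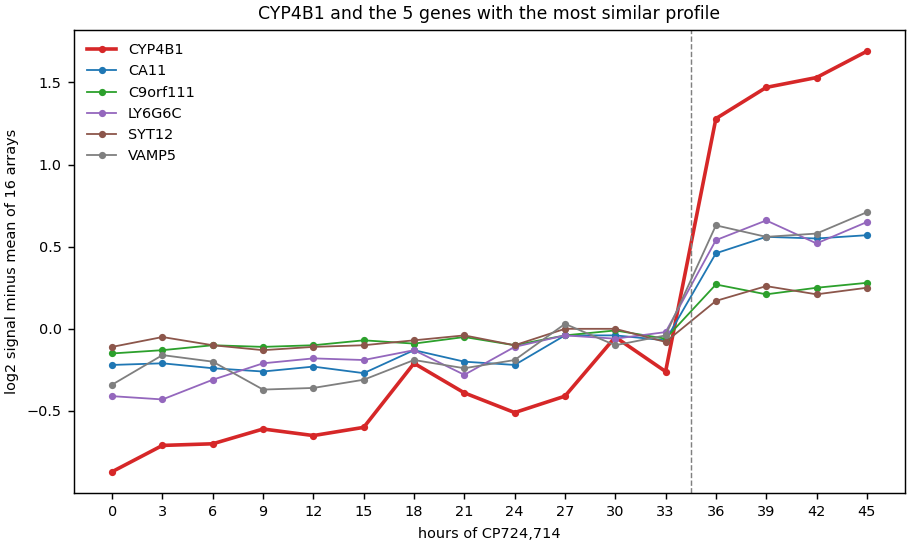
Log2 signal minus each gene's mean over the 16 arrays (y axis) against hours of CP724,714 (x axis) for CYP4B1 and the 5 genes most like it, 1 array per point. All 6 genes step up between 33 and 36 h (dashed line), CYP4B1 by 1.55 and the others by 0.25 to 0.67.

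Between 10363 and 11436 probes were detected on an array, and the upper quartile of intensity ranged from 397 at 9 h and 418 at 18 h to 804 at 30 h. The background separated the arrays from 0 to 21 h from those from 24 to 45 h, so a difference across 24 h and this split cannot be told apart. Of 12 markers of breast epithelium, KRT5, KRT8, KRT18 and EPCAM lay between 12.14 and 15.19 on the log2 scale, SFN between 11.86 and 13.77 and EGFR between 9.65 and 10.52. KRT19, CDH1 and TP63 lay near the floor, at 7.88 to 8.46, KRT14 was detected on 1 array and the ERBB2 probe on 7, at 7.93 to 8.01. KRT17, a basal keratin, rose from 11.51 at 0 h to 15.43 at 45 h, with a late change of 0.97 and a step beyond the drift of 1.04 (limma adjusted p = 0.011), beside the steps given above. Of 8 hepatocyte markers, a cell type rich in P450 enzymes, 6 were detected on no array, and ALB and SERPINA1 on 2 each, SERPINA1 at 8.67 to 9.63 with detection p-values off the common steps. Of the other markers, 5 of 7 for fibroblasts, 1 of 6 for leukocytes and 2 of 4 for endothelium were detected on no array, while DCN, CD14 and PECAM1 were detected on 16, at up to 8.47. KDR was detected on 15 arrays, PTPRC on 7, LYZ on 4, COL3A1 on 2, and CD3E and ITGAM on 1 each, at up to 8.06. Their part in the results was not tested.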

How the data were processed

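Expression was measured on Illumina human Ref8v2 beadchips, 1 array for each of 16 time points. The authors deposited the intensity of each probe before normalization between arrays, and a detection p-value that sets the probe against the negative controls of its array. The software that made these values is not given in the sources used here. Background correction, quantile normalization and conversion to log2 values used the neqc function (offset 16) of limma 3.58.1 under R 4.3.3. Folds of dim probes were smaller on this scale than under other settings, for a reason that was not tested. The late change of the dim gene C9orf111 was 0.30 here and 0.74 without background correction. With a background correction from the signals alone (normexp, offset 50) it was 0.97. Of 20589 probes, the 12321 with a detection p below 0.05 on at least 3 arrays entered the tests, and 40.2% were left out. Of several probes of a gene the brightest was used. Fits with lmFit and eBayes (mean-variance trend) were a natural cubic spline of hours with 4 degrees of freedom, a line in hours, 36 to 45 h against 24 to 33 h, and a step at 36 h with hours as covariate. P-values were adjusted by the Benjamini-Hochberg procedure over all tested probes, at 0.05. The fits were tested on simulated data. The members and lists were chosen with earlier results of these data known. The time points are single arrays, so p-values measure scatter about the fitted curves. Besides the members, the text names the 5 genes most like CYP4B1 and, per list, up to 2 genes with the largest late change and up to 2 with the largest fitted range among those called. Some genes that this rule names are not reported here. The step beyond the drift, other members of the gene lists and the cell type markers are given beside them. All 10 member symbols matched a current RefSeq symbol. The number of arrays limits the precision. Alternatives covered normalization, background, filter, probe choice, spline, batch and left-out arrays.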

Additional observations from a re-analysis of the deposited data

How the results depend on the processing

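Of 210 values for single members under settings other than leaving out an array, 194 kept direction and call, 4 lost the call, 5 gained one and 1 (the late change of CYP4B1, 1.58 without background correction) moved by more than its scatter. The sign turned for 6, all linear changes past the threshold under neither setting: under median scaling CYP1B1 (0.27) and ALDH3B2 (0.01), and within 24 to 45 h CYP1B1 (0.69), ALDH3A1 (-1), ALDH3B2 (0.05) and ALDH7A1 (-0.09). With single arrays left out, the sign also turned in places, again without a call: the linear change ran from -0.06 to 0.03 for ALDH3B2 (turned without 0 h) and from -0.38 to 0.15 for CYP1B1 (without 3 or 6 h). The step beyond the drift ran from -0.19 to 0.34 for ALDH1A3 (turned without 24 h) and from -0.07 to 0.34 for CYP1B1 (without 30 or 45 h). The late change ran from -0.08 to 0.10 for CYP51A1 (turned without 30, 33, 42 or 45 h) and from 0.00 to 0.03 for HMOX1 (without 30 h). The step of CYP4B1 at 36 h was 1.34 without background correction, 1.46 with normexp from the signals alone and 1.69 with median scaling, and it ranked 1 among tested probes each time. Of the 6 tested members, the number different between 36 to 45 h and 24 to 33 h was 2, 1 with median scaling (ALDH3A2 at adjusted p = 0.0978 in limma) and 1 in a fit of all 16 arrays (ALDH3A1 at adjusted p = 0.124 in limma). With 1 array left out at a time it was 1 to 3, with ALDH1A3 gained without the 24 h array (0.37, limma adjusted p = 0.0169). The number with a linear trend was 2, 3 within 0 to 21 h, 1 within 24 to 45 h, 3 with median scaling, and 2 to 3 with single arrays left out. The number that was time-dependent was 4, and 4 to 6 with single arrays left out, the 6 being reached without the 0 h array. The number with a step beyond the drift was 0 under each setting run. Without probes whose detection p was off the common steps, a setting chosen after seeing the data, 3 of 5 were time-dependent. Under median scaling the step at 36 h was 0.49 for ALDH3A2, -0.15 for ALDH7A1, 0.11 for CYP1B1 and 0.12 for ALDH1A3, the last pair with the sign turned. The late change of ESRRA lost its call under median scaling (limma adjusted p = 0.169). The fit of all 16 arrays lost 6 late calls of named genes, those of ALDH3A1, ESRRA (0.315), LRAT (0.153), SLC7A5 (0.0635), CBR3 (0.0732) and ALDH16A1 (0.0505), with limma adjusted p in brackets. No paired analysis was possible because the design holds 1 array per time. Signals near the background limit what can be said of CYP1A1, CYP24A1, ALDH2 and ALDH3B2.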
